A study of Mus musculus with 12 samples.

Results

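Conjugating enzymes attach a polar group to drugs, hormones, bile acids and bile pigments, which can then leave the body in bile or urine. The promoters described here belonged to genes whose symbols start with Ugt1, Ugt2 or Ugt3 (UDP-glucuronosyltransferases), with Sult and a digit (sulfotransferases), or with Gst and one of the class letters a, k, m, o, p, t and z (glutathione transferases). This rule found 63 of the 25124 gene symbols in the promoter table, namely 20 Ugt, 21 Sult and 22 Gst genes. They held 79 of its 43511 promoter rows, and 12 genes had more than 1 row. The row with the highest mean over all libraries stood for each gene.

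The Ugt enzymes sit in the endoplasmic reticulum and transfer glucuronic acid from UDP-glucuronic acid. The Sult enzymes transfer sulfate from the donor PAPS, and the Gst enzymes join glutathione to electrophiles. In liver, the nuclear receptors PXR and CAR, the aryl hydrocarbon receptor and NRF2, which responds to electrophiles, are known regulators of many of these genes. The Ugt1 genes form a single locus in which alternative first exons, each with its own promoter, are spliced to the same downstream exons, so each Ugt1 promoter serves a different enzyme.

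Accessibility of DNA was measured by ATAC-seq, in which a transposase cuts open chromatin, in liver from male C57BL/6N mice of wild-type genotype at an age of 19 to 20 weeks. Mice were gavaged on 4 days with distilled water (control), with atorvastatin at 10 mg/kg, a statin that blocks cholesterol synthesis, or with PCN at 100 mg/kg, pregnenolone 16α-carbonitrile, a steroid that activates mouse PXR, and all were fasted for 12 h. Each group had 4 libraries, and the labels give 9 to 10 mice per group without saying whether a library is 1 mouse, so a p-value here measures only the spread between libraries. The design compares each treatment with control and the treatments with each other.

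Promoter counts summed to between 1679054 (control 4) and 15336000.5 (atorvastatin 2) per library. Control 3 and atorvastatin 3 stood apart, with a median correlation to the other libraries over promoters of 0.716 and 0.751, against 0.911 to 0.968 for the other 10 libraries. Summed over 9 promoters of hepatocyte marker genes, levels were 206 to 507 CPM (counts scaled to the library total) in control, 295 to 590 with atorvastatin and 399 to 605 with PCN. The 6 Kupffer cell marker promoters summed to 23.3 to 71.8, 22.3 to 66.6 and 25.7 to 42.1 CPM in the same order, and none of the 5 non-hepatocyte lists was at 0 in any library. In such bulk samples, fewer cells of a type and less open chromatin per cell cannot be told apart. The marker sums and all levels below are CPM after TMM scaling, a correction for library composition. The width of the counted promoter windows is not given in the sources used here.

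Promoter sequences from RefSeq (build GRCm38.p6) were matched to 55 of the 63 genes. The 200 bases upstream of the start are shown for the genes on which the results turn, on the strand of the gene. The Ugt1a1 and Ugt1a9 promoters had fold changes of opposite sign within the Ugt1 locus, Gstp1, Gstp2 and Gstp3 are neighbours with levels from 10.6 to 85.9 CPM, and Gsto2 had the lowest p in both comparisons with control. Capitals mark matches on either strand to TGANTCAGC, AGTTCA and GCGTG.
Ugt1a1 (chr1:88211759-88211958, plus strand): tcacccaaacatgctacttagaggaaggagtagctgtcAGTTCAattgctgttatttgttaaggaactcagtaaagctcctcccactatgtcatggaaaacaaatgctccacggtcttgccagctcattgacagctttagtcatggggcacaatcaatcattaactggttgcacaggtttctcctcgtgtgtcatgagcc
Ugt1a9 (chr1:88070579-88070778, plus strand): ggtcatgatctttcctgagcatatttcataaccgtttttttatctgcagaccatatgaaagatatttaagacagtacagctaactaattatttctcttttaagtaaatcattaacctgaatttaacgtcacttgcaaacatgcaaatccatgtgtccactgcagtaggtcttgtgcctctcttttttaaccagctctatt
Gstp1 (chr19:4037913-4038112, minus strand): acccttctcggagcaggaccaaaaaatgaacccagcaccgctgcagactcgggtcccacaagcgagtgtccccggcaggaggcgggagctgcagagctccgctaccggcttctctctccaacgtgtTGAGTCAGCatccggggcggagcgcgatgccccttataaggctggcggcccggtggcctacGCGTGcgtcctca
Gstp2 (chr19:4042222-4042421, minus strand): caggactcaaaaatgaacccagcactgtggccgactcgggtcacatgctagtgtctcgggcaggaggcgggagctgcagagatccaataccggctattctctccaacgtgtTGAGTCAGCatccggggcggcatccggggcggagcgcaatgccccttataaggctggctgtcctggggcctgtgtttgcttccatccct
Gstp3 (chr19:4059448-4059647, minus strand): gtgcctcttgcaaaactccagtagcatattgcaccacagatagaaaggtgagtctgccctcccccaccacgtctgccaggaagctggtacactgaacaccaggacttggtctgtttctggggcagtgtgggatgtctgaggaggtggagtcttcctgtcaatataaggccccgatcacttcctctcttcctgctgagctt
Gsto2 (chr19:47865345-47865544, plus strand): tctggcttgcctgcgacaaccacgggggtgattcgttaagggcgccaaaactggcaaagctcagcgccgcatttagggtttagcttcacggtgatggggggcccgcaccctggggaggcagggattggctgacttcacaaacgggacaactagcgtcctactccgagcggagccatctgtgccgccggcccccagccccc

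The motif TGANTCAGC, an antioxidant response element of the AP-1 kind, stood on either strand in Gstp1 and Gstp2 among the 55 members (3.64%), against 1.19% of all 32851 promoter windows of 300 bases. In Gstp1 the match began 74 bases before the start and in Gstp2 89 bases before it. Within the aligned windows Gstp1 and Gstp2 were identical at 77.1% of positions, and Gstp3 had no match to this motif in the window.

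Other motifs were held by members as follows. For every motif, the one above included, a member counted if any of its windows held a match. The 55 members had 66 windows, while the background counts each window by itself. The 2 shares are thus in unlike units, and several windows can only raise the members' share. The nuclear receptor hexamers AGTTCA and AGGTCA each occurred in 21.8% of members, against 14.0% and 16.3% of all windows. The direct repeat of AGTTCA with 4 bases between its copies, which contains the first of these, occurred in 0 members and in 0.0122% of all windows. TATAAA, the sequence of the TATA box, occurred in 25.5% of members and 13.6% of windows, on either strand and anywhere in the window. In members its matches began from 246 bases before the start (Gsta2) to 40 after it (Gstm5). A match is therefore not by itself a TATA box. GCGTG, the core of the xenobiotic response element, occurred in 18.2% of members and 32.4% of windows. TGACNNNGC, a looser antioxidant core that can overlap TGANTCAGC, occurred in 5.45% and 12.4%, and CAAAGTCCA, a core of the HNF4 site, in 1.82% and 0.475%. Members held a median of 2 CpG dinucleotides per 300 bases. At 10 or more CpG stood 18.2% of members, against 58.9% of all 18397 symbols with a sequence. Most of the CpG-rich members were Gst genes, led by Gsto2 with 31 and Gstp1 with 20. For a gene with several windows the highest count was taken, and the Gsto2 window whose sequence is printed above held 20. Ugt1a1, the most open member, held 2. Across the 55 members the CpG count and the mean level had a Spearman rho of 0.54, and across all symbols of 0.69; genes share libraries and base composition, and no p is given.

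Levels differed far more between genes than between treatments. Ugt1a1, which glucuronidates bilirubin, had the highest mean over the 12 libraries, 99.9 ± 19.4 CPM (SD, n = 12). Gstp3, a pi-class glutathione transferase, followed at 85.9 ± 23.8 CPM, and Gstz1, which also isomerises maleylacetoacetate in tyrosine breakdown, at 66.7 ± 14.0 CPM. Ugt1a1 exceeded Gstp3 in 7 of 12 libraries only. Of all neighbours in the order of levels, just Gstz1 and the next member, Gstt2 (51.4 ± 13.3 CPM), differed by more than the larger SD of the pair, with Gstz1 higher in 11 of 12 libraries. Gstm1, a main hepatic mu-class enzyme, was at 49.0 ± 8.29 CPM. These levels compare genes only if the windows have 1 width.

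By family, the median of the members' means was 23.8 CPM for Gst, 11.3 for Ugt and 4.24 for Sult. Over all symbols of the promoter table the median was 12.9 CPM, and over the 63 members 12.0, both scaled to library totals. Among Gst genes the least open was Gstt4 at 5.43 CPM. Among Sult genes Sult1a1, a phenol sulfotransferase, led at 31.0 ± 7.57 CPM, ahead of Sult2a8, a bile acid sulfotransferase of liver, at 23.7 ± 6.71 CPM. The other Sult2a genes ranged from 1.91 CPM (Sult2a2) to 5.54 CPM (Sult2a7), and Sult3a1 and Sult3a2 were at 2.19 and 2.67 CPM. The least open Ugt genes were Ugt2a2 and Ugt2a1, at 2.16 and 2.21 CPM, whose enzymes are known mainly from the olfactory epithelium. Gstk1, a kappa-class enzyme of mitochondria and peroxisomes, varied least among the 38 members at 10 CPM or more, with an SD of 13.4% of its mean, and Gstp2 varied most, with 57.6%.

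**Figure D1:**
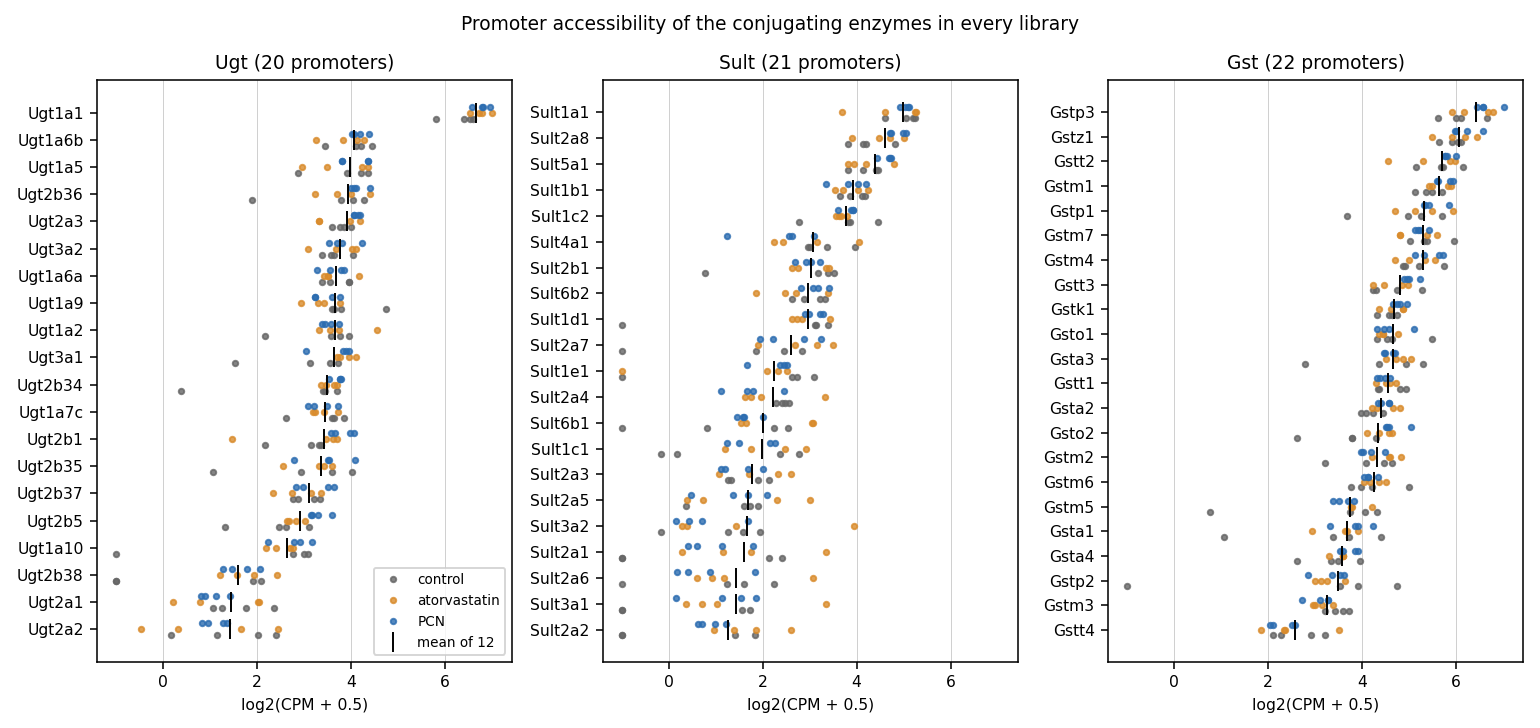
Level of each of the 63 promoters in every library, as log2(CPM + 0.5), in 1 panel per family; points are libraries coloured by group and the black mark is the mean of 12. Ugt1a1 stands alone in the Ugt panel, most Sult2a and Sult3a promoters lie low, and the points at -1 are libraries with 0 counts.

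Low promoters followed the library more than the group. The 38 members at 10 CPM or more had a median between 12.2 CPM (control 3) and 21.1 CPM (control 4). The 12 members under 4 CPM had a median of 0.199 CPM in control 3 and 6.55 CPM in atorvastatin 3, and of 0.943 to 3.27 CPM in the other 10 libraries. In control 3, 11 members held 0 counts, in control 4 there were 4 and in atorvastatin 3 there was 1. The ratio of the low to the open median was therefore lowest in control 3, at 0.0164, and highest in atorvastatin 3, at 0.361. Most family and list counts of fold changes below are given with all libraries and in the 10 libraries without control 3 and atorvastatin 3. Not every family is given for every comparison, and counts of groups without overlap are given with all libraries. The part of this spread in each gene's result was not tested.

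**Figure D2:**
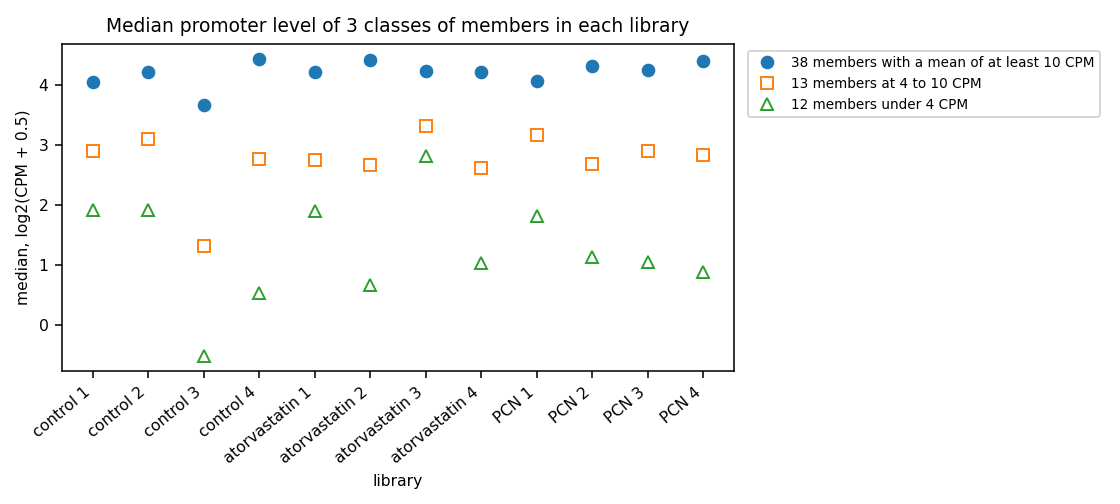
Median level of the open (38), intermediate (13) and low (12) members in each of the 12 libraries, as log2(CPM + 0.5). The open class stays near 4 in all libraries, while the low class is lowest in control 3 and highest in atorvastatin 3.

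Within the Ugt1 locus on chromosome 1, 8 first-exon promoters had rows, spread over 157 kb upstream of the Ugt1a1 start. Ugt1a1, the last of them, was 6.16 times as open as the next, Ugt1a6b (16.2 ± 3.67 CPM), an enzyme for planar phenols. Ugt1a5 followed at 15.2 CPM, Ugt1a6a at 12.3, Ugt1a9 at 12.1, Ugt1a2 at 12.0, Ugt1a7c at 10.3 and Ugt1a10 at 5.75 CPM. Ugt1a1 was the highest of the 8 in each of the 12 libraries, from 3.62 times the runner-up in control 4 to 7.00 times in PCN 2. From Ugt1a6b down to Ugt1a7c, neighbours in this order differed by less than the larger SD of each pair, while Ugt1a10 lay below Ugt1a7c by more than that.

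The share of Ugt1a1 in the summed counts of the 8 promoters does not depend on library scaling. It was 48.9, 49.9, 48.6 and 46.5% in control 1 to 4. With atorvastatin it was 56.2, 61.9, 56.3 and 55.0%, and with PCN 56.4, 62.8, 51.3 and 55.2%. Every treated library lay above every control library, control 3 and atorvastatin 3 included. The mean share was 8.90 percentage points higher with atorvastatin and 7.97 points higher with PCN than the control mean of 48.5 ± 1.44% (SD, n = 4). PCN and atorvastatin differed by -0.93 points. Leaving out control 3 and atorvastatin 3 gave differences from control of 9.30 and 8.01 points. This share was chosen after its values were seen, so it is a description with no p, and both comparisons use the same 4 control libraries. Ugt1a1 is also far more open than the other first exons, so a shift between high and low promoters would move the share. Over all symbols with PCN, 68.3% of those at 10 CPM or more and 21.2% of those under 10 CPM had a fold change above 0. With atorvastatin these were 59.5% and 53.4%. Without control 3 and atorvastatin 3, 69.9% of symbols at 10 CPM or more lay above 0 with atorvastatin, against 47.8% of all promoters. With PCN these were 68.8% and 48.3%. The part of such a shift in the share was not tested.

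The level of Ugt1a1 itself did not separate the groups. It was 84.5, 91.3, 55.0 and 95.5 CPM in control, 91.4, 128, 106 and 109 CPM with atorvastatin, and 109, 124, 94.2 and 111 CPM with PCN. The log2 fold change was 0.42 ± 0.27 (SE) for PCN and 0.41 ± 0.27 for atorvastatin, and 0.28 for both without control 3 and atorvastatin 3, so part of its size rests on the low value of control 3. At the other side stood Ugt1a9, an enzyme for bulky phenols, with 11.6, 13.2, 12.0 and 26.4 CPM in control, 7.08, 9.25, 13.1 and 10.3 CPM with atorvastatin, and 8.88, 8.84, 13.1 and 11.6 CPM with PCN. Its log2 fold change was -0.62 ± 0.35 for atorvastatin and -0.53 ± 0.36 for PCN, neither past the test, and -0.30 and -0.20 without control 4, the library with the high value. The other 6 first exons lay between -0.17 and 0.37 for atorvastatin and between -0.13 and 0.24 for PCN.

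**Figure D3:**
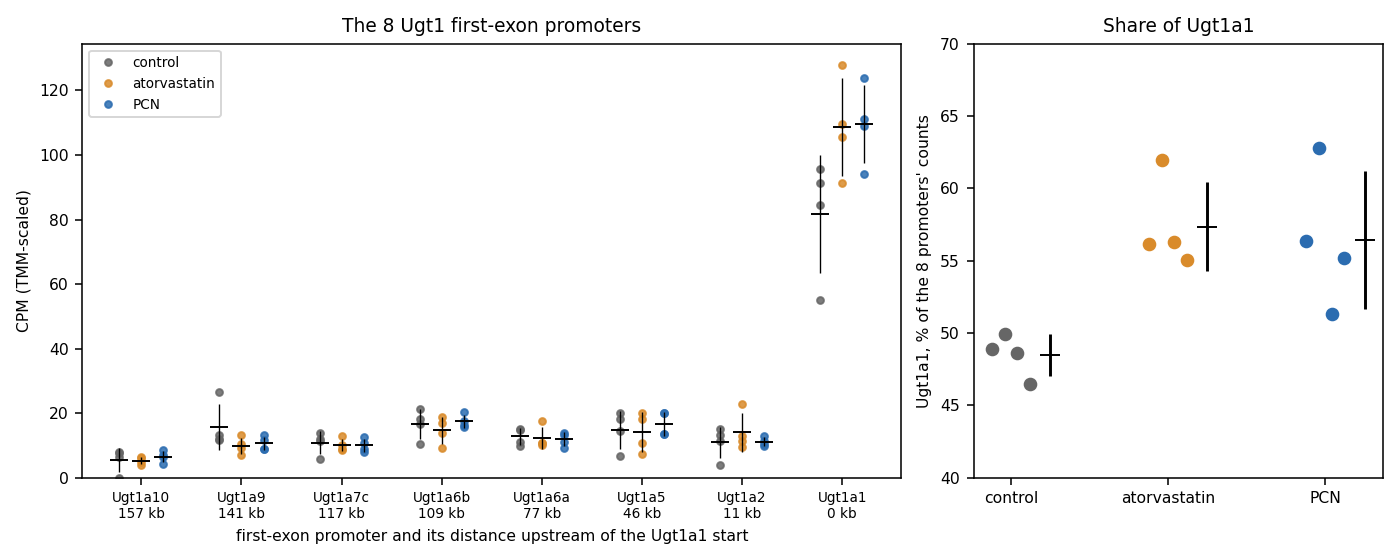
Left, CPM of the 8 Ugt1 first-exon promoters by library, ordered by their distance in kb upstream of the Ugt1a1 start, with mean ± SD (n = 4) per group. Right, the share of Ugt1a1 in their summed counts, on an axis from 40 to 70%; the 4 control libraries sit between 46.5 and 49.9% and the 8 treated ones between 51.3 and 62.8%.

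The comparison of PCN with control asks which promoters respond to a PXR agonist. No conjugating enzyme promoter passed edgeR's quasi-likelihood test after Benjamini-Hochberg adjustment over all 41908 promoters tested, and neither did any other promoter (0% called). With control 3 and atorvastatin 3 left out 6 promoters passed, none of them a member. At an unadjusted p under 0.05, 2 of 63 members were higher and 0 lower, against 1.87% and 1.88% of all promoters. Above 0 lay 35 of 63 members, with a median log2 fold change of 0.08, against 51.0% of all promoters and a median of 0.01. When control 3 and atorvastatin 3 were left out there were 28 of 63, with a median of -0.04, and all promoters moved too, with 48.3% above 0 and a median of -0.02. In those 10 libraries 3 members were higher (Gsto2, Sult2a8 and Ugt2b1) and 1 lower (Gstp2) at an unadjusted p under 0.05, against 2.93% and 1.58% of all promoters.

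The members split by level in the same direction as all genes, though less widely. Of the 38 members at 10 CPM or more, 26 (68.4%) lay above 0 with PCN, and of all 13875 symbols at that level 68.3% did. Of the 25 members under 10 CPM, 9 lay above 0 (36.0%), against 21.2% of 10728 symbols. These shares in the 10 libraries were 57.9% of the open members against 68.8% of symbols, and 24.0% of the low members against 13.2%. By family, 15 of 20 Ugt promoters lay above 0 (median 0.23), 13 of 22 Gst (0.17) and 7 of 21 Sult (-0.07). The Ugt2 genes, which glucuronidate steroids, bile acids and drugs, had 8 of 10 above 0 with a median of 0.38. In the 10 libraries the counts were 11 of 20 Ugt (median 0.03), 13 of 22 Gst (0.17) and 4 of 21 Sult (-0.36), and Ugt2 again had 8 of 10 above 0 with a median of 0.18.

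Gsto2, whose gene lies at chr19:47865438-47886308 and encodes an omega-class enzyme that reduces dehydroascorbate, had the lowest p. Its promoter was at 19.1, 13.4, 5.58 and 13.2 CPM in control, at 22.4, 32.4, 23.3 and 22.3 CPM with PCN and at 20.1, 24.4, 23.2 and 16.8 CPM with atorvastatin. All PCN libraries lay above all control libraries, and atorvastatin overlapped control through 1 control library, control 1. The log2 fold change with PCN was 0.91 ± 0.27 (adjusted p = 0.918, edgeR), with 4 of 4 libraries above the control mean. It was 0.67 ± 0.19 without control 3 and atorvastatin 3. The second Gsto2 row gave 1.04 ± 0.42, with 0 counts in control 3. Over the 22 alternative settings the log2 fold change ranged from 0.67 to 1.21, and the adjusted p from 0.0598 to 1.00.

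Gsto1, the other omega-class gene, ends 648 bases before the Gsto2 gene starts. Its promoter was at 19.5, 22.5, 44.3 and 24.5 CPM in control and at 23.5, 33.7, 19.5 and 21.7 CPM with PCN, a log2 fold change of -0.15 ± 0.25. Control 3 was thus the lowest library for Gsto2 and the highest for Gsto1. Without it and atorvastatin 3, Gsto1 was at 0.18 ± 0.19, and whether the fold changes of the 2 genes differ was not tested.

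Sult2a8, at chr7:14410686-14446780, was the other member with an unadjusted p under 0.05. It was at 17.8, 17.1, 13.6 and 27.7 CPM in control, at 26.0, 32.4, 25.7 and 31.0 CPM with PCN and at 25.7, 21.7, 14.4 and 31.8 CPM with atorvastatin. Control 4 lay within the range of the PCN libraries. The log2 fold change was 0.63 ± 0.25 (adjusted p = 0.918, edgeR) and 0.56 ± 0.19 without the 2 libraries that stood apart. The second Sult2a8 row, at a mean of 11.1 CPM, gave 0.21 ± 0.36, and whether the rows differ was not tested. Among the other 8 Sult2 genes only Sult2a7 lay above 0, at 0.57 ± 0.68.

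Groups did not overlap for 4 of 63 members, all higher with PCN, against 2.07% of all promoters, and for 0 members lower, against 1.52%. Besides Gsto2 these were Ugt2a3, Ugt2b1 and Ugt2b5, all in the Ugt2 cluster on chromosome 5. Ugt2b1 was at 8.34, 9.78, 3.99 and 9.43 CPM in control and at 12.2, 15.2, 11.4 and 16.1 CPM with PCN, a log2 fold change of 0.79 ± 0.45. Ugt2b5 was at 5.61, 8.07, 1.99 and 5.03 CPM in control and at 8.43, 9.27, 8.30 and 11.6 CPM with PCN, a log2 fold change of 0.82 ± 0.49. Ugt2a3, the most even of the 3, was at 11.5, 15.5, 13.2 and 13.8 CPM in control and at 16.2, 17.7, 17.3 and 16.1 CPM with PCN, a log2 fold change of 0.32 ± 0.28. None of the 3 passed the test (adjusted p = 0.918 for each, edgeR). Over the 10 other libraries the values were 0.59 ± 0.28, 0.56 ± 0.40 and 0.33 ± 0.23. The Ugt2b5 window is 84.2% identical to that of Ugt2b38 and 76.5% to that of Ugt2b37, so reads could be split between them, and their values are uncertain. Ugt2b37 was at 0.23 ± 0.45 and Ugt2b38 at 0.41 ± 0.82.

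**Figure D4:**
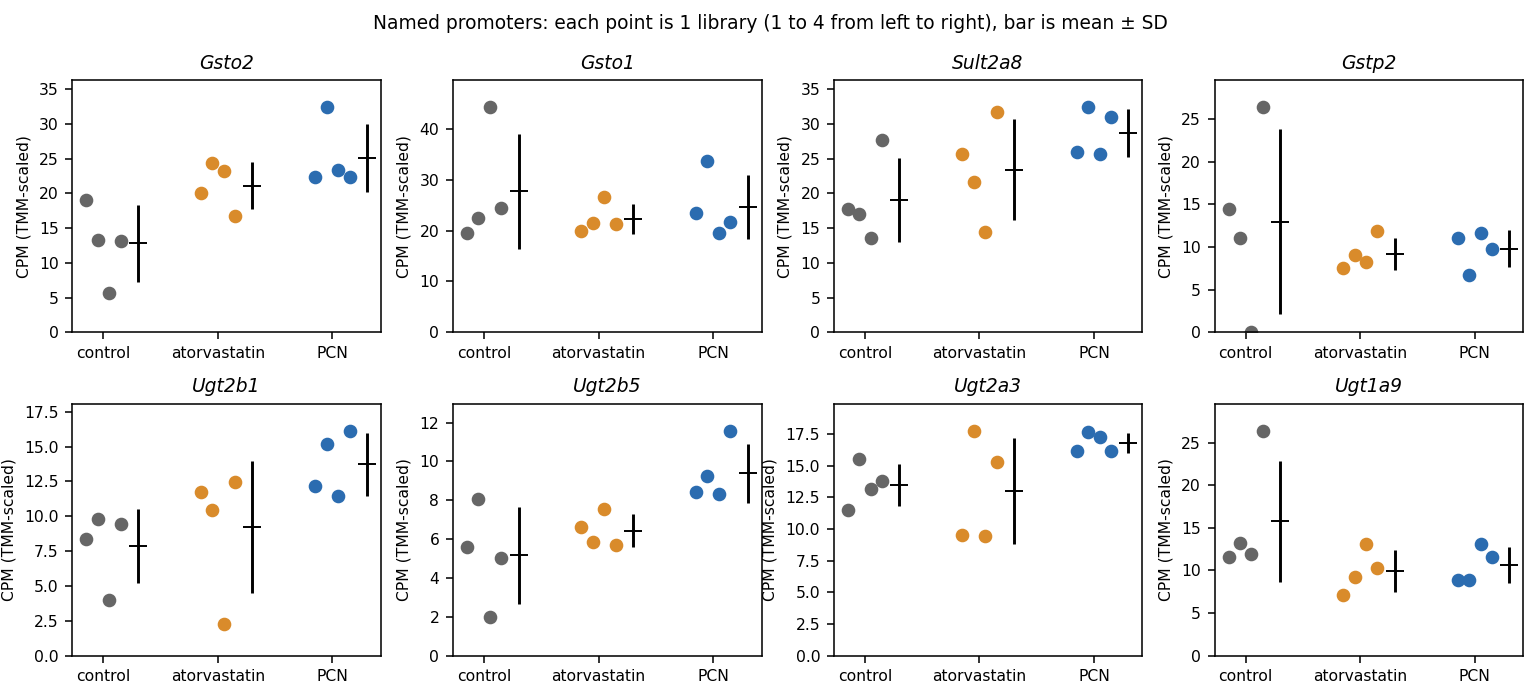
CPM of 8 promoters in each library (points, libraries 1 to 4 from left to right) with mean ± SD (n = 4) per group. In Gsto2, Ugt2b1, Ugt2b5 and Ugt2a3 all PCN points lie above all control points; in Gstp2 and Ugt1a9 the control group is spread by control 4, at 26.4 CPM in both.

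The remaining glutathione transferases lay closer to 0. Gstp3 had the third lowest p among members higher with PCN, with 48.6, 68.6, 63.4 and 101 CPM in control and 86.2, 130, 94.4 and 94.8 CPM with PCN (log2 fold change 0.54 ± 0.29). Its neighbour Gstp1, at 30.9, 37.7, 12.4 and 51.5 CPM in control and 39.4, 56.9, 39.9 and 42.4 CPM with PCN, gave 0.44 ± 0.31. Gstp2, which shares the antioxidant motif with Gstp1, was at 14.5, 11.0, 0 and 26.4 CPM in control and at 11.0, 6.74, 11.7 and 9.72 CPM with PCN. Its log2 fold change was -0.37 ± 0.58 in all libraries, -0.69 ± 0.29 without control 3 and atorvastatin 3, and 0.14 without control 4, so its direction rests on single control libraries. The 4 alpha-class genes, Gsta1 to Gsta4, were between 0.00 and 0.35. Of the 7 mu-class genes 2 lay above 0, Gstm1 at 0.34 ± 0.22 and Gstm4 at 0.28 ± 0.25, and Gstm3 lay lowest at -0.42 ± 0.39.

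On the lower side, the members of smallest p with PCN were Sult4a1, Ugt1a9 and Ugt2a1. Sult4a1, a sulfotransferase known from brain, was at 9.78, 7.30, 15.2 and 7.54 CPM in control and at 7.97, 5.69, 5.39 and 1.86 CPM with PCN, with overlap (log2 fold change -0.91 ± 0.54). Ugt2a1 was at 2.89, 4.66, 1.60 and 1.89 CPM in control and at 2.16, 1.68, 1.35 and 1.24 CPM with PCN (-0.82 ± 0.75). Of 5 members known mainly outside liver (these 2 with Ugt2a2, Sult2b1 and Sult6b1), 0 lay above 0, with all libraries and in the 10. All 5 had a mean under 10 CPM, a level at which 21.2% of all symbols lay above 0. The summed stellate cell marker promoters were at 36.1 to 59.1 CPM with PCN and 54.0 to 87.7 CPM in control, with overlap. Endothelial markers were at 36.2 to 57.5 and 39.6 to 81.1 CPM, and cholangiocyte markers at 40.8 to 57.3 and 44.1 to 72.2 CPM. The stellate markers had a median level of 9.33 CPM, and the part of such cells in the members' values was not tested.

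The comparison of atorvastatin with control asks which promoters respond to a statin. No member and no other promoter passed the test (0% of 41908), and in the 10 libraries 4 promoters passed, none of them a member. At an unadjusted p under 0.05 there was 1 member higher, Gsto2, and 0 lower, against 1.06% and 0.866% of all promoters. Above 0 lay 38 of 63 members, with a median log2 fold change of 0.09, against 57.3% of all promoters and a median of 0.05. Leaving out control 3 and atorvastatin 3 put 24 of 63 above 0, with a median of -0.07, against 47.8% of all promoters and a median of -0.02. There 1 member was higher (Sult2a8, 0.44 ± 0.20) and 2 were lower (Ugt1a9, -0.81 ± 0.30, and Gstp2, -0.74 ± 0.30) at an unadjusted p under 0.05, against 2.27% and 1.54% of all promoters. None of these passed after adjustment. No member had groups without overlap, against 0.535% of all promoters higher and 0.441% lower.

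Gsto2 had a log2 fold change of 0.67 ± 0.27 with atorvastatin (adjusted p = 1.00, edgeR), above the control mean in 4 of 4 libraries, and 0.37 ± 0.20 without control 3 and atorvastatin 3. Ugt3a1, which transfers N-acetylglucosamine, was next, at 11.2, 12.6, 2.39 and 8.17 CPM in control and 15.0, 13.2, 16.6 and 12.4 CPM with atorvastatin. Its log2 fold change of 0.68 ± 0.39 became 0.28 ± 0.28 without these libraries. On the lower side stood Ugt1a9, Gsto1 (-0.29 ± 0.25, and 0.03 without control 3) and Gstm3, at 12.8, 10.2, 11.6 and 8.80 CPM in control and 8.41, 7.23, 7.45 and 9.95 CPM with atorvastatin (-0.40 ± 0.39).

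The values of the Sult2 and Sult3 promoters differed with the libraries used. With atorvastatin 8 of 9 Sult2 genes lay above 0 (median 0.41), and both Sult3 genes did. The 10 libraries put 4 of 9 Sult2 genes (median -0.48) and neither Sult3 gene above 0. Leaving out atorvastatin 3 alone put 4 of 9 Sult2 genes above 0 (median -0.14), and leaving out control 3 alone put 7 of 9 above 0 (median 0.22). Sult3a2 was at 3.32, 2.48, 0.399 and 1.89 CPM in control and at 2.21, 0.723, 14.9 and 0.815 CPM with atorvastatin. Its log2 fold change was 1.11 ± 0.89, -0.89 without atorvastatin 3 alone, 0.81 without control 3 alone, and -1.22 ± 0.77 without both. Over all 21 Sult genes the median changed from 0.32 to -0.36, and those above 0 from 14 to 6. Gsta2, by contrast, had 15.3, 21.4, 16.3 and 18.2 CPM in control and 19.5, 24.6, 27.4 and 17.9 CPM with atorvastatin, and a log2 fold change of 0.33 ± 0.22 against 0.19 ± 0.20 without them.

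**Figure D5:**
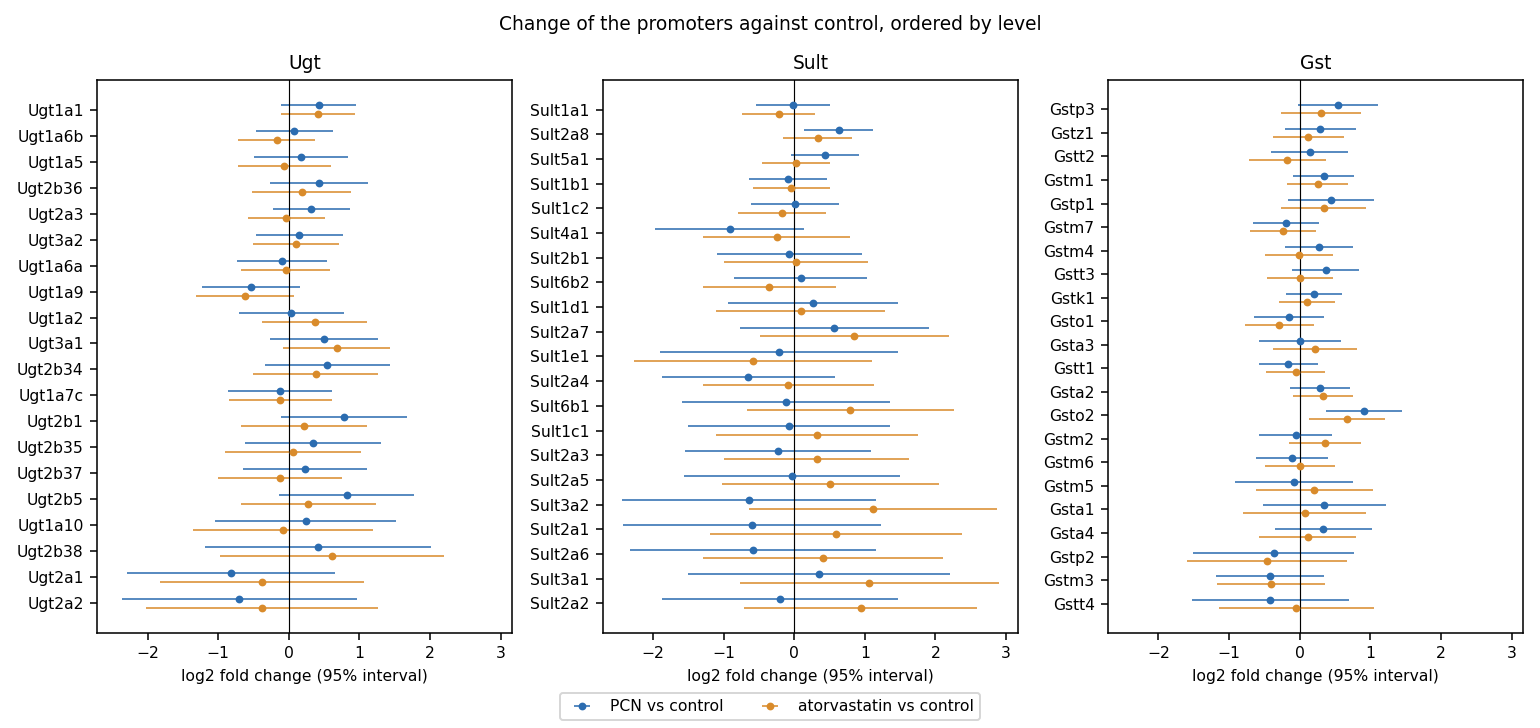
Log2 fold change of each of the 63 promoters with PCN (blue) and atorvastatin (orange) against control, with approximate 95% intervals from edgeR, ordered by level from top to bottom within each family. Intervals that leave out 0 belong to Gsto2 (both treatments) and Sult2a8 (PCN), and the intervals widen towards the low Sult promoters; both comparisons share the control libraries.

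Set against each other, PCN and atorvastatin gave no member past the test (0% of 41908 promoters called). At an unadjusted p under 0.05 there were 0 of 63 members in either direction, against 0.043% of all promoters higher with PCN and 0.687% lower. Above 0 lay 34 of 63, with a median of 0.05, against 47.9% of all promoters and a median of -0.02. In the 10 libraries 44 of 63 lay above 0, with a median of 0.08, against 52.8% of all promoters and a median of 0.01. There Ugt2b36 alone was higher at an unadjusted p under 0.05 (0.46 ± 0.21), against 0.217% of all promoters, and 0 members were lower, against 0.193%. Groups without overlap were found for 1 member higher with PCN, Ugt2b5 (5.71 to 7.56 CPM with atorvastatin, 8.30 to 11.6 CPM with PCN, log2 fold change 0.54 ± 0.48), against 0.291% of all promoters, and for 0 lower, against 0.212%. The lowest p on the higher side belonged to Sult5a1 (0.41 ± 0.24), Gstt3 (0.36 ± 0.23) and Ugt2a3 (0.36 ± 0.27). On the lower side Sult3a2 (-1.76 ± 0.90), Gstm2 (-0.41 ± 0.26) and Sult2a2 (-1.14 ± 0.84) led. Sult3a2 was at 0.29 without control 3 and atorvastatin 3, and Gstm2 at -0.33 ± 0.18.

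The genes around conjugation likewise gave none past the test in any comparison with all libraries. Beside the counts that follow stand 51.0% of all promoters above 0 with PCN, 68.3% of all symbols at 10 CPM or more, and 1.87% of promoters higher at an unadjusted p under 0.05. For the supply of UDP-glucuronic acid, 6 of 8 promoters lay above 0 with PCN (median 0.21), with Ugp2, which makes UDP-glucose, at 0.50 ± 0.34 and Ugdh, which oxidises it, at 0.23 ± 0.25. For the supply of PAPS and sulfate, 1 of 8 did (median -0.06), namely the sulfate carrier Slc26a1 at 0.27 ± 0.27. For glutathione synthesis and recycling there were 8 of 13 (median 0.19). Here Gclc and Gclm, the subunits of the rate-limiting ligase, stood at 0.19 ± 0.30 and 0.01 ± 0.25. Of 17 other transferases, 11 lay above 0 (median 0.31). Inmt, a methyltransferase, had an unadjusted p under 0.05 (0.63 ± 0.29). Among deconjugating enzymes there were 4 of 6 above 0 (median 0.05). Among 16 phase I and efflux genes 9 lay above 0 (median 0.08), and Abcc2, the canalicular pump for conjugates, at 0.65 ± 0.27, and Cyp3a13 at 0.69 ± 0.32 had an unadjusted p under 0.05. Cyp3a11, the best known target of mouse PXR, was at 0.64 ± 0.33. For the 10 libraries, in which 48.3% of all promoters and 68.8% of symbols at 10 CPM or more lay above 0, the counts with PCN were 8 of 8 for UDP-glucuronic acid supply (median 0.19), 2 of 8 for PAPS and sulfate (-0.01) and 9 of 13 for glutathione (0.16). They were 10 of 17 for other transferases (0.17), 4 of 6 for deconjugating enzymes (0.12) and 10 of 16 for phase I and efflux genes (0.07).

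Of 18 regulators 17 lay above 0 with PCN (median 0.28), against 68.3% of all symbols at 10 CPM or more, and 17 of 18 in the 10 libraries (median 0.17), against 68.8%. The exception was Nr1i2, which encodes PXR itself, at a mean of 45.4 CPM in control and 36.3 CPM with PCN (-0.30 ± 0.29). Nfe2l2, which encodes NRF2, was at 0.37 ± 0.32. With atorvastatin 15 of 18 regulators lay above 0 (median 0.17), against 59.5% of symbols at that level, and 16 of 18 in the 10 libraries (median 0.21), against 69.9%, and of the other transferases Ugcg, which makes glucosylceramide, had an unadjusted p under 0.05 (0.52 ± 0.23).

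Enhancer regions were assigned to the nearest gene body within 50 kb. In or near the members lay 851 of 406518 regions, and 469 of these were tested. The tested regions overlap one another and fall into 92 separate sites, so they are not independent. None passed the test in any comparison (0% of 182115 regions called). With PCN 354 of the 469 lay above 0 (75.5%, median log2 fold change 0.35), against 62.0% of all regions tested (median 0.17). In the 10 libraries there were 309 of 488 (63.3%, median 0.17), against 51.3% (median 0.02). At an unadjusted p under 0.05 stood 6 higher and 3 lower with PCN, against 1.24% and 0.683% of all regions. In the 10 libraries these were 42 and 12, against 4.14% and 3.58%, and 24 of the 42 lay near Sult genes. Groups did not overlap for 33 regions higher and 2 lower, against 3.64% and 0.859%.

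With atorvastatin 278 of the 469 enhancer regions lay above 0 (59.3%, median 0.20), against 58.4% of all regions (median 0.12). The members' share was thus near the background with all libraries. In the 10 libraries there were 275 of 488 (56.4%, median 0.05), against 50.9% (median 0.01). With all libraries 4 regions were higher at an unadjusted p under 0.05, all near Sult genes, and 7 lower, all near Gst genes, against 1.71% and 0.683%. Such regions can share a site, so these are not counts of separate sites. With a single region standing for each site, the lowest p on the higher side were 0.029 and 0.033 (edgeR), both near Sult2a7. On the lower side the lowest was 0.052, near Gsta3. In the 10 libraries 22 regions were higher and 16 lower at an unadjusted p under 0.05, against 3.06% and 2.46%. Groups did not overlap for 14 regions higher and 5 lower, against 2.12% and 0.674%. For PCN against atorvastatin 324 of 469 lay above 0 (69.1%, median 0.18), against 55.4% (median 0.06). In the 10 libraries there were 304 of 488 (62.3%, median 0.09), against 50.5% (median 0.0045). Of the 469, 0 higher and 1 lower region had an unadjusted p under 0.05, against 0.062% and 0.403%, and in the 10 libraries 8 and 0, against 1% and 0.929%. Groups did not overlap for 10 higher and 0 lower, against 1.43% and 0.898%.

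The Ugt1 locus held 59 tested regions in 11 sites, of which 56 lay above 0 with PCN (median 0.65) and 53 with atorvastatin (median 0.51). Of all regions tested 62.0% and 58.4% did. Over the 10 other libraries these were 54 of 63 (median 0.32) and 49 of 63 (median 0.39), against 51.3% and 50.9%. With all libraries 0 of the 59 had an unadjusted p under 0.05 in either comparison, against 1.24% and 1.71% of all regions higher and 0.683% lower in each. Groups did not overlap for 0 regions higher with PCN and 6 with atorvastatin, against 3.64% and 2.12%. Here too both comparisons use the same control libraries.

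Among single sites, a difference that separated the control group from both treatments lay 32.3 kb from Sult2a7, a hydroxysteroid sulfotransferase gene, at chr7:14525295-14525477 (build mm10). The region held 11.1, 9.77, 10.8 and 11.4 CPM in control, 15.8, 14.7, 22.5 and 18.5 CPM with atorvastatin and 19.5, 22.5, 17.3 and 15.1 CPM with PCN. Every treated library lay above every control library, as it did for 3.64% of all regions with PCN and 2.12% with atorvastatin. The log2 fold change was 0.79 ± 0.32 with PCN (adjusted p = 1.00, edgeR) and 0.74 ± 0.32 with atorvastatin, and 0.84 ± 0.28 and 0.65 ± 0.30 without control 3 and atorvastatin 3. Inside the Sult1a1 gene, the region at chr7:126681210-126681392 held 9.02, 9.12, 3.24 and 8.55 CPM in control and 10.8, 20.2, 13.9 and 12.5 CPM with PCN (log2 fold change 0.92 ± 0.40), while the Sult1a1 promoter was at -0.02 ± 0.27. The region 6.45 kb from Ugt2b35, at chr5:87019719-87019847, was higher by 2.33 ± 0.88 on a low level of 1.03, 1.30, 0 and 0 CPM in control and 4.66, 3.99, 3.38 and 2.87 CPM with PCN.

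Lower with both treatments was a region 38.7 kb from Gsta3, an alpha-class gene, at chr1:21304259-21304397. It held 5.67, 7.49, 9.72 and 22.8 CPM in control, 3.96, 4.90, 6.49 and 5.84 CPM with atorvastatin and 5.51, 3.99, 5.81 and 5.73 CPM with PCN. Control 4 was far above the other control libraries, and control 1 lay within the range of the treated ones. The log2 fold change was -1.04 ± 0.50 with PCN and -1.02 ± 0.49 with atorvastatin (adjusted p = 1.00 for both, edgeR). With PCN against atorvastatin the lowest p on the higher side belonged to a region 11.9 kb from Ugt2b1, at chr5:86938365-86938503, with 0.990, 1.85, 0 and 1.11 CPM with atorvastatin and 2.76, 5.12, 2.63 and 4.30 CPM with PCN (1.77 ± 0.95). Control libraries there ranged from 0 to 7.22 CPM. The lowest p on the lower side belonged to a region 8.21 kb from Ugt2a1, at chr5:87499080-87499262. It held 0.495, 2.50, 8.99 and 0.835 CPM with atorvastatin and 1.70, 0.569, 0.375 and 0.358 CPM with PCN. Its log2 fold change was -2.02 ± 0.94, and -0.88 ± 0.77 without control 3 and atorvastatin 3. For PCN against control it was -1.93 ± 0.96.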

How the data were processed

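The authors deposited 2 tables of expected counts (estimated counts, from how the values look) in steps of 0.5. One holds promoters named by RefSeq transcript and the other enhancer regions, per the file headers. The submitters' processing notes name mm10 as build and list the tools Trimmomatic, HOMER 4.10, STAR 2.7.9a and bedtools 2.30.0, without their roles. How reads were counted over promoters, the promoter window and any filter are not given in the sources used here. Per the labels, the 12 ATAC-seq libraries, 4 in each of 3 groups, were made from 100000 nuclei tagmented for 45 min.

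Each table was rounded to whole counts, and rows were kept by filterByExpr (minimum count 10, minimum total 15), which left 41908 promoters, all 63 members included, and 182115 enhancer regions. The quasi-likelihood test of edgeR 4.0.16 (R 4.3.3) was fitted to all 12 libraries with TMM factors and the group as sole term, and p-values were adjusted over the whole table (Benjamini-Hochberg, threshold 0.05). Standard errors were derived from the F statistic, so they and the 95% intervals are approximate. The fit was also run on simulated data, and no result given here rests on that run. Approximate intervals were widest for low members.

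The text names the 3 members of smallest p per direction and comparison, members whose groups do not overlap, and core enzymes. It also names the most and least open of each family. Of the 3 enhancer sites of smallest p per direction and comparison it names only some. Members, motifs and lists were chosen with earlier results of these data known. The alternatives tried were scaling (DESeq2's factors, plain totals, loess), no filter, other tools (DESeq2 1.42.0, limma-voom with limma 3.58.1), pairwise fits, a block on the replicate number, all rows of a gene, and leaving out single libraries or control 3 together with atorvastatin 3. The block on the 10 remaining libraries, the Ugt1a1 share, and the member, family and list counts in those libraries or without 1 of the 2 were added after the data were seen. Motifs and identities were computed in Python 3.11.15 with biopython 1.88 from RefSeq windows of 250 bases before to 50 after a start. The genes without such a window were Gsta4, Gstt2, Sult2a1, Sult2a2, Sult2a7, Sult4a1, Ugt1a6b and Ugt3a2. Gene positions are those of RefSeq on GRCm38.p6.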

Additional observations from a re-analysis of the deposited data

Results flagged for a closer look

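In a test for a library far from the other 3 of its group (Dixon, 69 groups tested), which flags about 1 group in 20 by chance, 5 results stood out. For Gsto2, PCN 2 was at 32.4 CPM and the other PCN libraries at 22.3 to 23.3 CPM. For Sult3a2, atorvastatin 3 was at 14.9 CPM and the others at 0.723 to 2.21 CPM. For Ugt1a9, control 4 was at 26.4 CPM and the others at 11.6 to 13.2 CPM. PCN 3 was low for Sult5a1, at 21.0 CPM against 25.4 to 26.2 CPM, and for Ugt3a1, at 7.74 CPM against 13.8 to 14.9 CPM.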

How the results depend on the processing

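No promoter or enhancer passed the threshold in the fits to all 12 libraries as reported, and the replicate block alone also gave 0 in every comparison. Without control 3 and atorvastatin 3, 6 promoters passed with PCN and 4 with atorvastatin, and with the replicate block added 124 and 57 promoters and 20 and 4 enhancers. DESeq2 gave 1 promoter with atorvastatin. No member was among the promoters called without those 2 libraries, with or without the block. At an unadjusted p under 0.05 edgeR gave 1572, 807 and 306 promoters and DESeq2 2095, 1010 and 561 (PCN against control, atorvastatin against control, PCN against atorvastatin). Same-numbered libraries correlated at -0.43 to 0.51 over promoters, with 6 of 12 pairs over 0.1 and 6 of 12 libraries closest to their own number. Over enhancers these were -0.015 to 0.15, 7 of 12 and 10 of 12. Not every pair was over 0.1, so the number was taken as a name only, and the correlations are a hint from the data, not the design.

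The median of the members with PCN (0.08) was -0.036 with plain library totals, which put the median of all promoters at -0.10 and 38.4% of them above 0. It was 0.15 with limma-voom, -0.036 without control 3 and atorvastatin 3, -0.00051 with the replicate block added, and between -0.040 (without control 3) and 0.17 leaving out 1 library. With atorvastatin (0.09) it was -0.072 without those 2 libraries and -0.10 with the block added. For PCN against atorvastatin (0.05) it was 0.12 with limma-voom, 0.10 with the replicate block, 0.13 with the block and without the 2 libraries, and -0.011 to 0.14 leaving out 1. Under limma-voom the median of all promoters was 0.081 in this comparison, with 62.1% above 0. For PCN against control that median was 0.011.

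Among single values, Gstp2 turned to 0.21 with PCN and 0.099 with atorvastatin under limma-voom, and ranged from -0.75 to 0.14 and from -0.85 to 0.050 leaving out 1 library. Gsto1 with atorvastatin ranged from -0.44 to 0.032. Sult3a2, PCN against atorvastatin, ranged from -2.39 to 0.24, and was 0.29 without the 2 libraries and 0.19 with the block added. A region 3.43 kb from Gsta3 turned to -0.12 with atorvastatin under that block. The Ugt1a1 share, PCN minus atorvastatin, ranged from -3.06 to 0.77 points leaving out 1 library (0.60 without atorvastatin 2). The causes were not tested.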
